A study of Mus musculus with 8 samples.

Results

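The 60-kb stretch described here lies on the minus strand of mouse chromosome 7 at chr7:66870001-66930000 (mm9), between Ube3a and Snrpn. It was chosen by its signal in wild-type total RNA, which was lower than that of the minus strand on either side. Its members are all array probes, controls left out, that read the minus strand and whose lower coordinate falls in that interval. They number 880 of the 53834 distinct probes of the array. Its dimness in wild type is given below as a description and is not tested.

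In mouse neurons a very long RNA runs on the minus strand of this region, beginning near Snrpn and reaching across Ube3a, where it is called Ube3a-ATS (also Snhg14). It is made from the paternal chromosome only, hosts clusters of small nucleolar RNAs on the way, and its passage across Ube3a is known to keep the paternal copy of that gene silent. Ube3a encodes a ubiquitin ligase whose maternal copy is the one that neurons use. The relation of the stretch to named transcripts of the region was not determined, since no gene annotation of the mm9 build was used here.

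All mice were C57BL/6, taken at postnatal day 0, and the tissue was cerebral cortex. Random hexamers primed a first-strand cDNA carrying Cy5, so the probes of each strand read the RNA of that strand. One sample carried a Snrpn to Ube3a deletion on the maternal chromosome (del s-u/+) and 1 carried it on the paternal chromosome (del +/s-u). Each of 2 double deletion samples combined the maternal Snrpn to Ube3a deletion with a deletion at the Snrpn promoter on the paternal chromosome. The reference was 2 wild-type samples (WT1, WT2), which the series design describes as littermates of the single deletions, and 2 polyA RNA samples were purified from those same 2 RNAs.

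The promoter deletions are called 0.9 and 4.8. For both double deletion samples the title names one and the genotype field the other, so they are numbered replicate 1 and replicate 2, and neither is tied to an allele. The labels and series design used here give neither the end points of the deletions nor the number of animals behind a sample. The p-values below measure only the spread between these samples, which may be technical. Probes carry no gene names, so the cortical origin could not be checked against marker genes.

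The members were of 2 kinds. Of them, 546 were custom probes and 334 belonged to the manufacturer's catalogue. They occupied 876 distinct positions, 782 were 60 bases long and the shortest had 45 bases. Starts were spaced by a median of 67.5 bases and at most 110 bases. The members come from the same RNA samples and are not replicates of a condition.

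The median member intensity was 457.5 units in the maternal deletion, 59 in the paternal deletion, 96 and 186 in double deletion replicates 1 and 2, and 520.5 and 527.25 in the wild types. The polyA arrays had medians of 57 and 55. The local background was between 34 and 38 on all 8 arrays, so the paternal deletion and polyA medians lay little above it. The scanner software called 879 members well above background in the maternal deletion, 593 in the paternal deletion, 806 and 869 in the double deletions, and all 880 in each wild type. In polyA RNA it called 737 and 703. Over all probes of the arrays this share ranged from 58.6% to 89.7%, and the number of arrays limits the precision of what follows.

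Intensities are given below as levels, on a log2 scale set to 0 at the 75th percentile of the array's own 3338 probes that lie outside the tiled locus. One catalogue member had an outlier mark on the paternal deletion array, which left 879 members with a level on all total RNA arrays. The wild types differed by a median of 0.127 per member in size, and by over 0.5 at 46 members. Signal has a lower limit on this scale, at -1.62 on the paternal deletion array and between -1.64 and -1.57 on the wild-type arrays, so a dim member cannot fall far.

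The mean level of the members was 2.31 in the maternal deletion, 0.55 in the paternal deletion, 0.82 and 1.51 in double deletion replicates 1 and 2, and 2.58 and 2.62 in the wild types. The wild-type mean was 2.60 ± 0.03 (SD, n = 2). The paternal deletion was lowest and the maternal deletion lay just under the wild types. The double deletions lay between the single deletions and well apart from each other. By its name the Snrpn to Ube3a deletion takes in the stretch itself, although its end points are not given here. The part of this in the levels was not tested. In bulk RNA, fewer cells of a type and less RNA per cell cannot be told apart.

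The minus strand around the stretch was brighter in wild type. From chr7:66600001 up to the lower border, 2513 probes had a mean level of 0.36 in the paternal deletion and 5.44 in wild type. From the upper border to chr7:67060000, 1058 probes averaged 1.36 in the paternal deletion and 5.42 in wild type. The mean level of the stretch minus that of the lower plateau was -2.97 in the maternal deletion, 0.18 in the paternal deletion, -1.25 and -2.74 in double deletion replicates 1 and 2, and -2.96 and -2.72 in the wild types. Against the upper plateau the difference was -2.79 in the maternal deletion, -0.81 in the paternal deletion, -1.77 and -2.50 in double deletion replicates 1 and 2, and -2.87 and -2.78 in the wild types. As a mean over all members, the dip below the lower plateau was thus not seen on the paternal deletion array. That plateau was itself near the level of the stretch there. The mean includes 154 members, described below as bright on both strands, that averaged 5.67 on that array. The other 725 averaged -0.54 there, below the lower plateau, whose own probes were not split in this way. The 10 kb next to the lower border averaged 5.20 in the maternal deletion, -0.07 in the paternal deletion, 1.70 and 4.08 in the double deletions, and 5.47 and 5.24 in the wild types. The 10 kb next to the upper border averaged 4.92 in the maternal deletion, 0.60 in the paternal deletion, 2.00 and 3.65 in the double deletions, and 5.28 and 5.29 in the wild types.

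**Figure D1:**
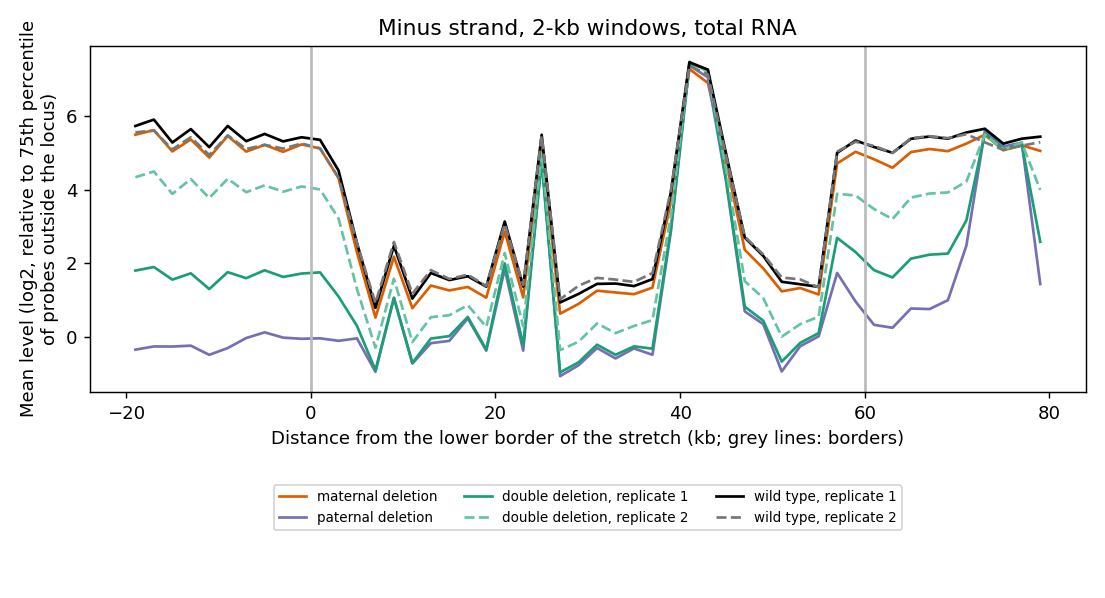
Mean level of minus-strand probes in 2-kb windows on the 6 total RNA arrays (log2, 0 at the 75th percentile of the array's probes beyond the locus), against the distance from the lower border of the stretch in kb. Grey lines mark the borders. The wild-type lines drop about 5 kb inside the lower border and return about 3 kb before the upper border, and all 6 lines meet near 7 at 40 to 44 kb.

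The stretch was not evenly dim. Its first 5 kb and last 3 kb were nearer the neighbouring plateaus in wild type, so the label dim suits the inner 52 kb rather than the whole interval, and even there single probes reached saturation. The 3 sections were set after the levels were seen and get no test. Many of the bright members had a plus-strand probe at the same position that was bright as well. A member is called bright on both strands here where that plus-strand probe had a wild-type level above 2, a limit also set after the levels were seen. There were 154 such members, 142 custom and 12 catalogue.

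The 725 other members had a mean level of 1.53 in the maternal deletion, -0.54 in the paternal deletion, -0.23 and 0.55 in the double deletions, and 1.80 and 1.87 in the wild types. The paternal deletion mean was 5.18-fold lower than wild type, and 717 of the 725 were below both wild types there. Only 440 of the 725 were well above background in the paternal deletion, so this fold is bounded by the lower limit of the scale. The 154 members bright on both strands averaged 6.01 in the maternal deletion, 5.67 in the paternal deletion, 5.77 and 6.02 in the double deletions, and 6.25 and 6.17 in the wild types. Their median change in the paternal deletion was -0.05, with 72 of the 154 below both wild types. The median member bright on both strands thus had like levels in the paternal deletion and wild type, with exceptions such as the one at chr7:66929264-66929308 described further on.

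**Figure D2:**
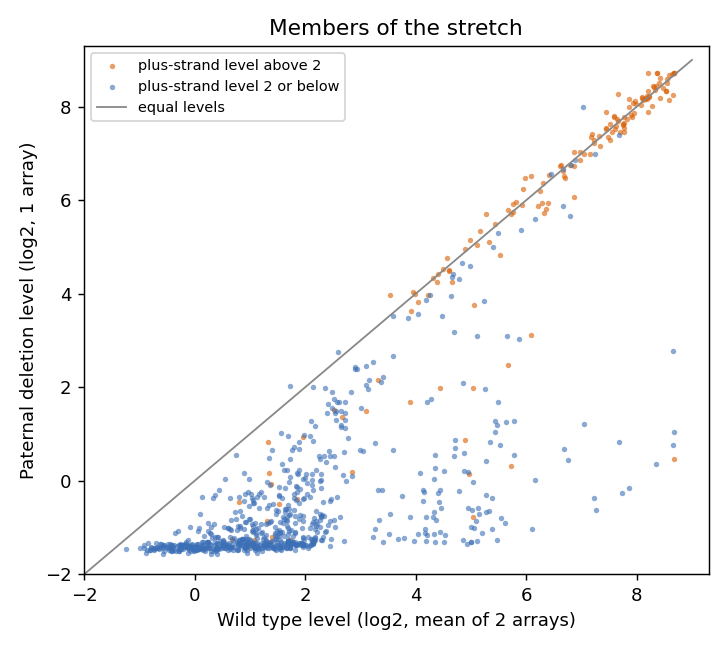
Each point is 1 of 879 members, with its level on the paternal deletion array (vertical, log2) against its mean wild-type level (horizontal, log2, 2 arrays). Members whose plus-strand partner had a wild-type level above 2 lie mostly along the line of equal levels, whereas the others lie mostly below it and many sit at the lower limit of the paternal deletion array.

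Without the members bright on both strands, the first 5 kb held 51 members. Their mean level was 4.44 in the maternal deletion, -0.01 in the paternal deletion, 1.31 and 3.39 in the double deletions, and 4.68 and 4.51 in the wild types. The inner 52 kb, chr7:66875001-66927000, held 613. They averaged 0.97 in the maternal deletion, -0.67 in the paternal deletion, -0.55 and 0.04 in the double deletions, and 1.24 and 1.34 in the wild types. The inner section was therefore the dim one, with a wild-type mean of 1.29 ± 0.07, against 4.59 ± 0.12 in the first 5 kb (SD, n = 2 each).

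The last 3 kb held 61 such members, with a mean level of 4.66 in the maternal deletion, 0.32 in the paternal deletion, 1.72 and 3.32 in the double deletions, and 4.99 as the mean of the wild types. The 3 sections lay closer together on the paternal deletion array than in wild type. They were set after the wild-type levels were seen, so this contrast was partly fixed in advance. The change in the paternal deletion was -4.61 in the first 5 kb, -1.96 in the inner 52 kb and -4.68 in the last 3 kb. In the inner section this was 3.88-fold, with levels close to the lower limit of the array.

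The drop at the lower side took a few kb. In 1-kb windows without members bright on both strands, the window at chr7:66872001-66873000 had a level of -0.16 in the paternal deletion and 5.17 in wild type. The window at chr7:66875001-66876000 had -0.35 in the paternal deletion and 1.79 in wild type, and the next one had -1.22 in the paternal deletion and 0.57 in wild type. At the upper side, the window at chr7:66925001-66926000 had -0.52 in the paternal deletion and 1.48 in wild type, against -0.20 in the paternal deletion and 4.61 in wild type in the window at chr7:66927001-66928000. Wild-type signal thus changed over a short distance on both sides, and paternal deletion signal stayed low across both.

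Low as it was, the inner section was brighter in wild type than in the paternal deletion in most of its length. Of its 49 1-kb windows with such members, 45 had 3 or more. Across these 45 the level ranged between -1.42 and 0.69 in the paternal deletion, with a median of -0.86, and between 0.13 and 2.81 in wild type, with a median of 1.18. In all 45 the paternal deletion was below both wild types. The 4 windows with fewer such members are not covered by this count, and 1 of them, chr7:66910001-66911000, had 6.68 in the paternal deletion and 6.46 in wild type.

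The 2 probes on each side of each border were as follows. Just inside the lower border, the probe at chr7:66870025-66870084 had a level of -0.99 in the paternal deletion and 5.31 and 4.69 in the wild types. The next, at chr7:66870135-66870194, had 1.28 in the paternal deletion and 5.48 and 5.39 in the wild types. Just outside it, the probe at chr7:66869915-66869974 was not well above background in the paternal deletion and had 4.82 and 4.66 in the wild types, which makes it at least 66.4-fold lower in the paternal deletion. The one at chr7:66869805-66869864 had -1.17 in the paternal deletion and 2.78 and 2.53 in the wild types. Of these 4 the outermost had the lowest wild-type level.

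Just inside the upper border, the probe at chr7:66929865-66929924 had a level of -1.31 in the paternal deletion and 4.98 and 5.04 in the wild types. Its neighbour at chr7:66929975-66930034 had 8.21 in the paternal deletion and 8.14 and 8.06 in the wild types, and is bright on both strands. Just outside, the probe at chr7:66930071-66930115 had 1.80 in the paternal deletion and 4.93 and 5.03 in the wild types. The one at chr7:66930080-66930129 had 0.74 in the paternal deletion and 5.12 and 5.27 in the wild types. The plus-strand partners of the last 2 probes had 2.00 and 2.20 in wild type, so they too were bright on both strands by that limit, if only just. Of these 4 probes only the one with a level above 8 did not have a wild-type level near 5.

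The comparisons were tested with limma over 356 bins of 10 kb on both strands of the locus and, apart from that, over 49275 probes, with Benjamini-Hochberg adjustment over all of them. Each double deletion was a group of its own, because the labels give them different promoter deletions, so the spread came from the wild-type pair alone and the single deletion samples are assumed to vary like it. The fit that takes the double deletions as 1 group, which then adds their spread, is given beside it and decides several calls. The 3 comparisons of deletions with wild type and the polyA comparison use the same wild-type arrays and are not independent of each other. A probe was tested where all arrays of some group had it well above background. All 880 members met this through the wild types, so the counts of members called lower rest partly on that filter.

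In the paternal deletion all 6 bins of the stretch fell. The first bin, chr7:66870001-66880000, had a mean level of -0.07 in the paternal deletion and 2.82 and 2.80 in the wild types. The second bin, chr7:66880001-66890000, had -0.22 in the paternal deletion and 1.44 and 1.51 in the wild types. The third bin, chr7:66890001-66900000, had 0.52 in the paternal deletion and 2.14 and 2.19 in the wild types. In each of these the paternal deletion lay far outside the gap between the wild types.

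The fourth bin, chr7:66900001-66910000, had a mean level of 0.04 in the paternal deletion and 1.81 and 1.94 in the wild types. The fifth bin, chr7:66910001-66920000, had 3.42 in the paternal deletion and 4.54 and 4.51 in the wild types. The last bin, chr7:66920001-66930000, had 0.30 in the paternal deletion and 3.10 and 3.15 in the wild types. The fifth bin was the brightest on all 8 arrays and had the smallest fall.

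**Figure D3:**
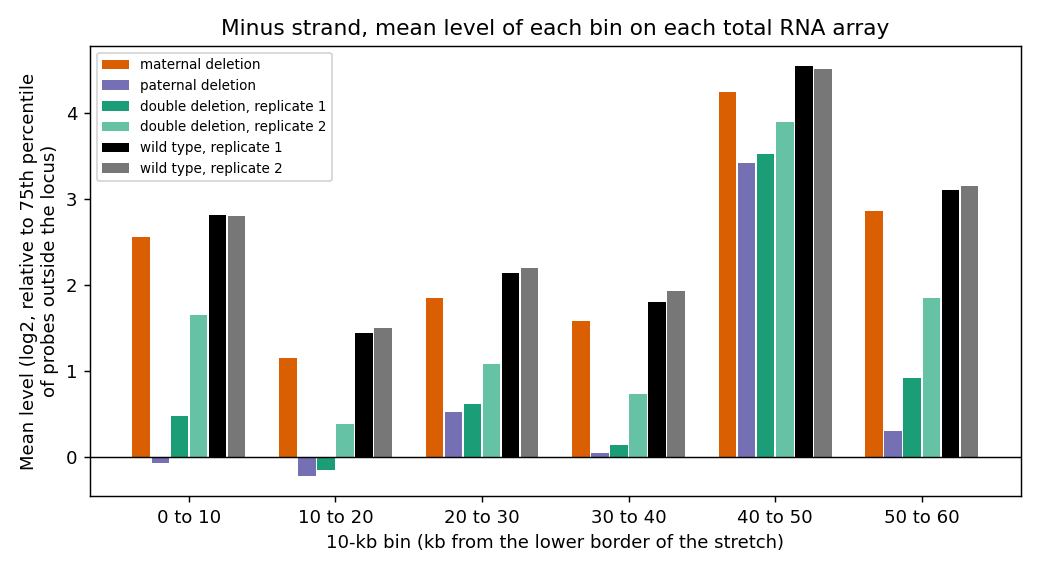
Mean level of the members in each 10-kb bin of the stretch (log2, 0 at the 75th percentile of the array's probes beyond the locus), with 1 bar per total RNA array. In every bin the paternal deletion is lowest, the double deletions come next with replicate 1 under replicate 2, and the maternal deletion lies just under the wild types.

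The log2 change in the paternal deletion was -2.88, -1.69, -1.64, -1.83, -1.10 and -2.83 along the 6 bins, with standard errors between 0.04 and 0.07. All 6 bins were called lower by limma (adjusted p between 0.000107 and 0.000551), against 19.4% of all bins. Among single probes, 701 of 879 members were called lower, against 14.2% of all probes. Of these 879, 592 were well above background in the paternal deletion. The others entered the test only through groups where they were brighter, so the count leans on that filter. The median change was -1.76 over the 6 bins and -0.01 over all bins. With the double deletions as 1 group, limma called 0 of the 6 bins (adjusted p = 0.108) and 0% of all bins, and 0 members and 0% of all probes. At an unadjusted p under 0.05 that fit had all 6 bins and 701 members lower, of 96 bins and 9288 probes in either direction. Leaving out a wild type is possible only with the double deletions also taken as 1 group, since no residual degree of freedom is left otherwise. Without wild type replicate 1, or without replicate 2, that fit called 0 of the 6 bins, as it did with both wild types, and 4 were lower at an unadjusted p under 0.05 each time. Scaled on all probes of the array, locus included, the mean change of the members was -0.80 and the fifth bin turned to 0.15 higher, whereas the other 5 bins were still called lower.

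The change per member spanned from none to the limit of the scanner. The member with the largest change, at chr7:66929264-66929308, had a level of 0.47 in the paternal deletion and was saturated in both wild types at 8.65 and 8.69. Its plus-strand partner had 2.92 in wild type. It was at least 295-fold lower in the paternal deletion (limma, adjusted p = 3.6e-05, or 0.118 with the double deletions as 1 group). The double deletions had 5.24 and 7.55 there, the maternal deletion had 8.41, and it was also the brightest member of its bin in wild type.

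The members at chr7:66871235-66871294 and chr7:66873105-66873164 came next. The first had a level of -0.15 in the paternal deletion and 7.94 and 7.80 in the wild types, 259.5-fold lower in the paternal deletion. The second had -0.27 in the paternal deletion and 7.73 and 7.75 in the wild types, 257-fold lower. Both had a limma adjusted p of 3.6e-05, and 0.118 with the double deletions as 1 group. All 3 of these members lie in the bright end sections rather than in the inner 52 kb.

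At the other extreme, 3 members differed least between the paternal deletion and wild type. The one at chr7:66895105-66895164 had a level of 8.21 in the paternal deletion and 8.25 and 8.18 in the wild types. The one at chr7:66926785-66926844 had 5.71 in the paternal deletion and 5.77 and 5.67 in the wild types. The one at chr7:66909735-66909794 had 7.22 in the paternal deletion and 7.07 and 7.38 in the wild types. Each had a plus-strand partner with a wild-type level above 4.

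In the other 5 bins the brightest member also had a bright plus-strand partner, but saturation limits what 4 of them can show. At chr7:66878495-66878554 and chr7:66895325-66895384 the spots were saturated on all 6 total RNA arrays, so neither a fold nor a lack of difference can be read. At chr7:66908195-66908254 the intensity was 65271 in the paternal deletion, just under the scanner's limit, and the wild types were saturated. At chr7:66882565-66882624 the level was 8.23 in the paternal deletion and 8.16 and 8.27 in the wild types. At chr7:66915785-66915844 the intensity was 47554 in the paternal deletion, against 65508 (saturated) and 64796 in the wild types, so the wild-type mean there is only a lower bound.

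Members near the middle of their bin give the usual picture. At chr7:66876185-66876244 the level was -1.29 in the paternal deletion and 2.09 and 2.16 in the wild types, 10.7-fold lower on this scale. The intensities there were 43 in the paternal deletion and 669.5 and 681.5 in the wild types, before background correction and offset. At chr7:66880116-66880175 the paternal deletion was not well above background and the wild types had 1.12 and 1.22, at least 5.83-fold lower. At chr7:66892355-66892414 it was -0.63 in the paternal deletion and 1.47 and 1.46 in the wild types, 4.27-fold lower. These 3 were called lower by limma in the fit with the double deletions apart.

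At chr7:66901375-66901434 the level was -0.14 in the paternal deletion and 1.42 and 1.62 in the wild types, 3.17-fold lower and called lower by limma. The middle member of the fifth bin, at chr7:66915565-66915624, had 4.00 in the paternal deletion and 3.99 and 3.98 in the wild types, and its plus-strand partner was far brighter at 8.67 in wild type. The middle member of the last bin, at chr7:66923705-66923764, had 2.43 in the paternal deletion and 3.07 and 2.74 in the wild types, which limma did not call (adjusted p = 0.201). With the double deletions as 1 group none of these 6 middle members was called.

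Members with high signal in the paternal deletion occurred in every bin and were densest in the fifth. On that array 155 members had a level above 3. Of these, 125 were bright on both strands, 145 were custom probes and 57 lay in the fifth bin. The windows at chr7:66910001-66912000 and chr7:66912001-66914000 had levels of 7.38 and 7.06 in the paternal deletion and 7.42 and 7.20 in wild type. A second, narrower place was the window at chr7:66894001-66896000, with 4.87 in the paternal deletion and 5.48 in wild type. The fifth bin held 49 members bright on both strands among 112, and without them it had 0.41 in the paternal deletion and 2.27 and 2.31 in the wild types, a change of -1.87 against -2.07 for the same kind of members in the fourth bin.

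Probe kind moved with these results. Custom members had a mean level of 1.27 in the paternal deletion and 3.07 and 3.10 in the wild types, a change of -1.82. Catalogue members had -0.63 in the paternal deletion and 1.77 and 1.85 in the wild types, a change of -2.44. Of the 154 members bright on both strands only 12 were catalogue probes. The part of probe design in the levels was not tested.

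The plus strand at the same 880 positions was dim and alike on all total RNA arrays. Its mean level was 0.14 in the maternal deletion, 0.15 in the paternal deletion, 0.06 and 0.15 in the double deletions, and 0.18 and 0.17 in the wild types. Minus exceeded plus by 2.17 in the maternal deletion, by 0.40 in the paternal deletion, by 0.75 and 1.36 in the double deletions, and by 2.40 and 2.45 in the wild types. None of the 6 plus-strand bins was called by limma in the paternal deletion (adjusted p between 0.188 and 0.971), and 0 of them had an unadjusted p under 0.05. Of the plus-strand bins only the fifth was bright, at 1.88 in the paternal deletion and 1.81 and 1.79 in the wild types. The only plus-strand call in the double deletions was that bin, which was 0.15 higher than in wild type (limma, adjusted p = 0.0439, or 0.375 with the double deletions as 1 group).

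**Figure D4:**
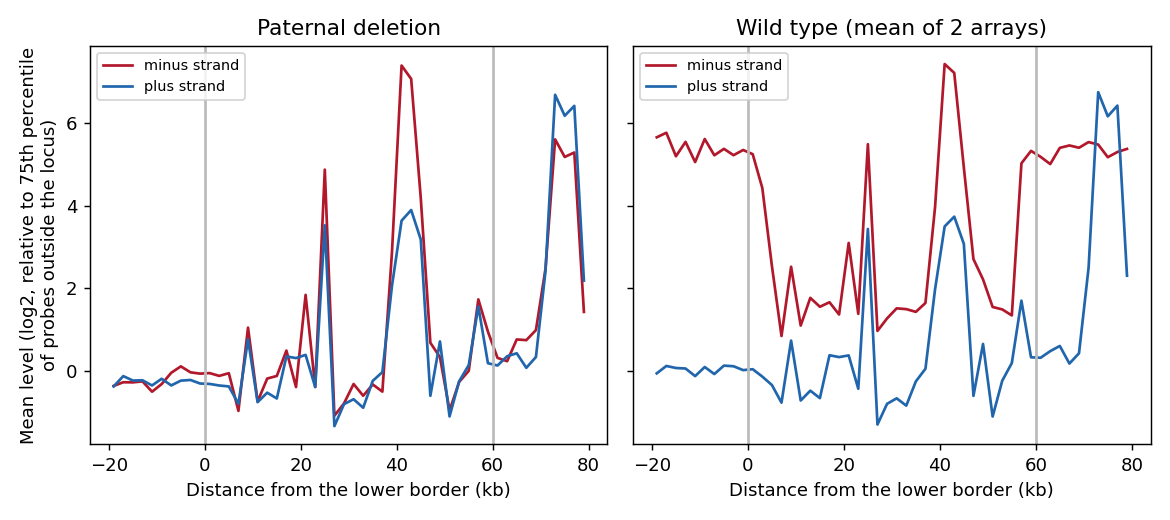
Mean level of minus- and plus-strand probes in 2-kb windows (log2, 0 at the 75th percentile of the array's probes beyond the locus) for the paternal deletion, left, and the mean of 2 wild types, right, against the distance from the lower border in kb. Between the borders the minus strand lies above the plus strand almost throughout in wild type, whereas in the paternal deletion the lines mostly run together, apart from a few windows where the minus strand is bright.

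In the maternal deletion the stretch was slightly lower. The log2 change was -0.25, -0.33, -0.32, -0.29, -0.28 and -0.27 along the 6 bins, a mean 1.22-fold decrease over members. The second bin, for example, had a mean level of 1.15 in the maternal deletion and 1.44 and 1.51 in the wild types. The first bin had 2.56 in the maternal deletion and 2.82 and 2.80 in the wild types. The maternal deletion lay below both wild types in all 6 bins, and at 744 of 879 members.

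Limma called 5 of the 6 bins lower in the maternal deletion (adjusted p between 0.0294 and 0.0362), against 6.74% of all bins. The fourth bin was not called (adjusted p = 0.103). Only 14 of 879 members were called, against 1.21% of all probes, so the share among members was near that of all probes. With the double deletions as 1 group limma called 0 of the 6 bins (adjusted p = 0.983) and 0% of all bins, and 0 members and 0% of all probes. At an unadjusted p under 0.05 that fit had 0 of the 6 bins and 20 members lower, of 61 bins and 6174 probes in either direction. With wild type replicate 1 or replicate 2 left out as well, that fit again called 0 of the 6 bins, with 0 at an unadjusted p under 0.05, and the median of a bin in place of the mean left 1 called.

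A shift in the same direction was measured outside the stretch. The change in the maternal deletion was -0.16 in the lower plateau, -0.32 in the upper plateau and -0.04 on the plus strand of the stretch. Members bright on both strands had a mean change of -0.19 and the other members one of -0.31. The maternal deletion array was also the brightest over all spots, with a median intensity of 161, against 134.5 and 125 in the wild types. The part of array brightness in the shift was not tested.

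In the double deletions all 6 bins fell as well. The change along the 6 bins, as the mean of both double deletions, was -1.75, -1.36, -1.32, -1.44, -0.82 and -1.74. In the fit that keeps the double deletions apart, limma called all 6 bins lower (adjusted p between 0.000252 and 0.000509), against 26.4% of all bins. It called 718 of 879 members lower, against 21.1% of all probes. With the double deletions as 1 group it called 2 of 6 bins, the second and the third (adjusted p over the 6 bins between 0.0362 and 0.134), against 3.37% of all bins. That fit called 237 members, against 2.91% of all probes. With wild type replicate 1 or replicate 2 left out as well, it called 0 of the 6 bins, with 1 lower at an unadjusted p under 0.05.

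The double deletions were not alike. The first bin had a mean level of 0.47 and 1.65 in double deletion replicates 1 and 2, against 2.82 and 2.80 in the wild types. The second bin had -0.15 and 0.38 in the double deletions and 1.44 and 1.51 in the wild types. The last bin had 0.92 and 1.85 in the double deletions and 3.10 and 3.15 in the wild types. Replicate 1 was the lower one in every bin, and at 804 of 879 members.

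Over all members the change from wild type was -1.78 in double deletion replicate 1 and -1.09 in replicate 2. Replicate 1 stood 0.27 above the paternal deletion and replicate 2 stood 0.96 above it. The paternal deletion was below replicate 1 at 567 of 879 members. In the inner 52 kb, without members bright on both strands, the change was -1.84 in replicate 1, close to the paternal deletion value of -1.96, and -1.25 in replicate 2. In the first 5 kb it was -3.28 and -1.20, and in the paternal deletion -4.61, so the replicates lay further apart where wild-type signal was high. The mean inner level was -0.55 in replicate 1 and 0.04 in replicate 2, with lower limits of -1.83 and -1.74 on these arrays. Of the 613 such members of the inner section, 539 and 602 were well above background in the double deletions. In the paternal deletion 332 were. The part of the lower limit in these differences was not tested. With 1 sample each, and labels that contradict each other, no test between them was made.

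The double deletions share the maternal Snrpn to Ube3a deletion with the maternal deletion sample, and this comparison asks what differs when the paternal promoter deletion is added. The change ranged between -1.50 in the first bin and -0.54 in the fifth. The fourth bin had a mean level of 0.14 and 0.73 in the double deletions and 1.58 in the maternal deletion. The fifth bin had 3.53 and 3.89 in the double deletions and 4.25 in the maternal deletion. Both double deletions were below the maternal deletion in all 6 bins.

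Limma called all 6 bins lower in the double deletions than in the maternal deletion (adjusted p between 0.000879 and 0.00457), against 18% of all bins. It called 651 of 879 members, against 15.7% of all probes. With the double deletions as 1 group it called 0 of the 6 bins (adjusted p = 0.520) and 0% of all bins, and 0 members and 0% of all probes. At an unadjusted p under 0.05 that fit had 4 of the 6 bins and 528 members lower, of 24 bins and 6361 probes in either direction. With wild type replicate 1 or replicate 2 left out as well, it called 0 of the 6 bins, with 0 at an unadjusted p under 0.05. The maternal deletion is a single sample in this comparison and in the one with wild type, which share it.

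Scaled on the probes beyond the locus, all 6 bins were lower in polyA RNA than in the total RNA it was purified from. The mean level of the members was 1.24 and 1.19 in polyA RNA and 2.58 and 2.62 in total RNA of the same wild types. The second bin had 0.72 and 0.69 in polyA RNA and 1.44 and 1.51 in total RNA. The fifth bin had 2.51 and 2.45 in polyA RNA and 4.54 and 4.51 in total RNA. Both polyA samples lay below both total RNA samples in all 6 bins, and at 776 of 879 members.

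**Figure D5:**
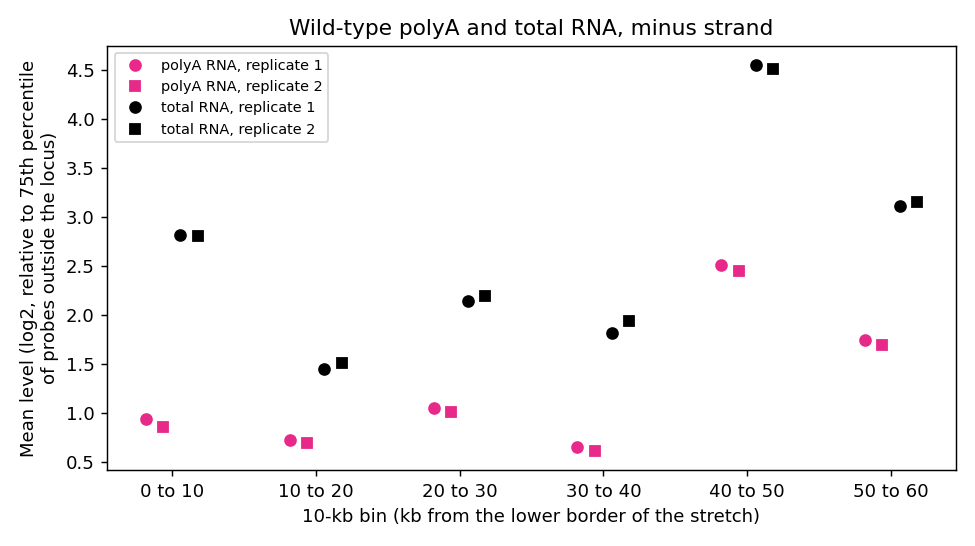
Mean level of the members in each 10-kb bin of the stretch for polyA RNA and total RNA of 2 wild types (log2, 0 at the 75th percentile of the array's probes beyond the locus). The polyA points lie below the total RNA points in every bin, with a difference of -0.77 in the second bin and of -2.05 in the fifth.

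The change in polyA RNA along the 6 bins was -1.91, -0.77, -1.14, -1.24, -2.05 and -1.41. Limma called all 6 bins lower (adjusted p between 4.07e-05 and 0.000221), against 46.3% of all bins. It called 727 of 880 members lower, against 40.9% of all probes tested in that comparison. Scaled on all probes of the array instead, the mean change of the members was -0.04, and limma called 2 bins lower and 2 higher. The direction of this change therefore depends on the scale in 3 of the bins, and the polyA arrays were also dimmer, with a median intensity of 45 and 44 over all spots.

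Differences within an array do not depend on that scale. The stretch minus the lower plateau was -0.64 and -0.45 in polyA RNA and -2.96 and -2.72 in total RNA. Against the upper plateau the difference was -2.25 and -2.20 in polyA RNA and -2.87 and -2.78 in total RNA. The lower limit of the polyA arrays was higher, at -0.28 and -0.21, which narrows any difference between dim regions there. In polyA RNA the first 5 kb had 1.42 and 1.23 and the last 3 kb had 2.93 and 2.83, without members bright on both strands, against a total RNA mean of 4.59 and 4.99 for these sections.

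Members bright on both strands averaged 4.45 and 4.31 in polyA RNA and 6.25 and 6.17 in total RNA, a change of -1.82. The other members averaged 0.56 and 0.53 in polyA RNA and 1.80 and 1.87 in total RNA, a change of -1.29. The windows at chr7:66910001-66912000 and chr7:66912001-66914000 had 4.15 and 4.13 in polyA RNA replicate 1, against 7.47 and 7.27 in total RNA replicate 1. A bright member without such a difference was the one at chr7:66882565-66882624, which had 8.34 and 8.45 in polyA RNA and 8.16 and 8.27 in total RNA.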

How the data were processed

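The deposited scanner files hold the intensity of each spot in the red channel on a linear scale, per the file headers made with Agilent Feature Extraction 10.7.3.1, whereas the submitters' processing notes name version 10.9. Per the labels, the median pixel intensity was the value to use. Outlier, saturation and background marks (other values) were deposited in the same files. The authors' series matrix, also intensity, holds 18408 features and was used as an alternative. It covers 334 members, and the sources used here do not say how its factor per array was set. Coordinates are those of mm9 in the files.

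Each array had 57933 spots that are not controls. Red intensities went through normexp (offset 50, limma 3.58.1, R 4.3.3) and a log2 transform. Outlier-marked spots were then left out and spots of a probe averaged. After that, each array's 75th percentile over its probes beyond the locus was subtracted. A probe was tested where all arrays of some group had it well above background, and 10-kb bins needed 3 or more of them. lmFit and eBayes were run two-sided with a threshold of 0.05 after Benjamini-Hochberg adjustment, with 1 residual degree of freedom per feature in the 6-array fit. The steps were tested on simulated data.

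Probes named in the text are, in each bin, the one with the highest wild-type level and the one nearest the bin's median, the 2 on each side of each border, and the 3 with the largest and the 3 with the smallest change in the paternal deletion. A spot saturated or not well above background throughout a group gives a bound, computed from normalized means, with the lowest signal among probes well above background as the floor. The members, lists and tests were chosen with earlier results of these data known.

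PolyA RNA was purified from the wild-type samples used for total RNA, per the series design, so replicate numbers pair them. The difference of the wild types correlated between polyA and total RNA across 43784 probes (Pearson r = 0.19, across probes, which are not independent replicates). All 8 arrays lay on 1 slide with 1 scan, so neither could be fitted as a batch. Alternatives covered scale, normalization, background, filters, bins, grouping and left-out arrays. Probe sequences were not used here.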

Additional observations from a re-analysis of the deposited data

How the results depend on the processing

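The mean change of the members kept its sign under every alternative run, between -0.40 and -0.24 for the maternal deletion, -4.24 and -0.80 for the paternal deletion, -2.33 and -0.97 for the double deletions against wild type, -1.93 and -0.71 against the maternal deletion, and -2.20 and -0.04 for polyA RNA. Scaling on all probes moved the mean change by 1.25 in the paternal deletion and by 1.34 in polyA RNA. It turned the fifth bin to 0.15 in the paternal deletion and 3 polyA bins to 0.58, 0.20 and 0.10. Under it 2 of 6 polyA bins were called lower. With the double deletions as 1 group, the number of bins called lower was 0 in the maternal deletion, 0 in the paternal deletion, 2 in the double deletions against wild type and 0 against the maternal deletion. The median of a bin in place of the mean left 1 bin called in the maternal deletion. Leaving out 1 array at a time gave between 0 and 5 bins for the maternal deletion, between 0 and 6 for the paternal deletion and for both double deletion comparisons, and 6 each time for polyA RNA. The counts of 0 came without wild type replicate 1 or replicate 2, where the double deletions had to be taken as 1 group as well, since no residual degree of freedom was left otherwise. In the 6-array fit the spread came from the wild-type pair alone. Leaving out a deletion array that a comparison did not use could therefore hardly change its count, and such settings are no check. Of 95 counts of bins under these alternatives, 81 stayed within 1.5 times of the reported one, and the 81 include such settings. With the replicate block that pairs polyA and total RNA, 6 of 6 bins and 728 members were called lower, and the block changed no call of a bin. The mean pixel signal and a series matrix scaled on probes outside the locus were not run, since the files used here held no such column or probes. The catalogue probes alone, the series matrix as deposited and the members without those bright on both strands were chosen as alternatives after seeing the data.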

Other observations

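At 4 positions of the stretch a custom and a catalogue probe read the same bases. In the paternal deletion their levels differed by 0.01, 0.05, 0.01 and 0.14, and in wild type by 0.16, 1.01, 0.16 and 0.20. Except at chr7:66882455-66882514, the paternal deletion levels were between -1.49 and -1.08. That is near the lower limit of that array, -1.62, which narrows differences there. The pair that differed by 1.01 in wild type lies at chr7:66883775-66883834. The other pairs differed by little more in wild type than the wild types did from each other at a median member (0.127).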
